A study of Oryctolagus cuniculus with 134 samples.

Results

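PECAM1, VWF, CDH5, KDR, TEK, TIE1 and NOS3 are genes by which the endothelium is recognised, the cell layer that lines the inside of vessels and covers the leaflets of heart valves, and their levels were followed in rabbit aorta and heart valves. They were chosen by name, and each had 1 row in both deposited gene tables, so that they made up 7 of 29587 genes. Male New Zealand White rabbits, 12 weeks old at the start, were kept for 16 weeks in 4 groups. The Ctrl group (7 rabbits) ate chow. The CHT group (6 rabbits) ate chow with 0.3% cholesterol and the Lard group (7 rabbits) chow with 5% lard, and both received vitamin D2 at 25000 U per day for 15 days. The IR/CHT group (7 rabbits) was treated like the CHT group and additionally received a total dose of 24 Gy, given as 3 doses of 8 Gy once it had been on the diet for 8 weeks. The beam was aimed at the aortic valve and the aorta in the chest. Since Ctrl rabbits received no vitamin D2, diet and vitamin D2 cannot be told apart in a comparison with Ctrl, and the rabbits model diet-induced change without any edited gene. RNA was sequenced from the aorta (Ao), the aortic valve (AoV), the mitral valve (MV), the pulmonary valve (PV) and the tricuspid valve (TV) of the same rabbits, giving 1 library per rabbit and tissue, of 7 Ctrl, 6 CHT, 7 Lard and 7 IR/CHT rabbits, except that MV had 6 Ctrl libraries.

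As background, CDH5 (VE-cadherin) and PECAM1 (CD31) are adhesion proteins of the junctions between endothelial cells. KDR (VEGF receptor 2) is the main signalling receptor for VEGF-A, TEK (Tie2) is the receptor for angiopoietins, and TIE1 is a related receptor that associates with TEK. VWF is a large glycoprotein that tethers platelets and is stored in granules of endothelial cells, and NOS3 (eNOS) makes the nitric oxide that relaxes vessels. In the wall of the aorta smooth muscle cells far outnumber endothelial cells, while a leaflet is mostly interstitial cells and matrix under a thin endothelium. In such bulk samples, fewer or more cells of a type and less or more RNA per cell cannot be told apart.

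Libraries held between 13564979 and 50577676 read pairs on genes, with a median of 18235577. The lowest count of any of the 7 genes in a library was 5 read pairs, so none was at or under a floor of 3. Levels are given in CPM, the count of read pairs scaled to library size with TMM factors, with 1 scaling over the libraries of all tissues. Smooth muscle genes marked the aorta, with a summed level of 84863 to 119376 CPM in Ctrl Ao against 578.5 to 1749 CPM in the Ctrl valves. TBX5, a transcription factor of the heart, separated MV and TV, at 12.0 CPM or more, from the other tissues, at 6.16 CPM or less, except for Lard PV replicate L271 at 36.2 CPM and Lard TV replicate L272 at 0.0669 CPM. Both came from the same rabbit, each has the TBX5 level of the other's tissue, and their tissue labels may be crossed, so the results were also computed without them. IR/CHT PV replicate L176 had a smooth muscle sum of 21386 CPM, far above the other PV libraries. All Ao libraries were on plate 2, whereas the valves were spread over both plates. CHT AoV and CHT MV were on plate 1 alone.

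In Ctrl rabbits, 6 of the 7 genes were lowest in the aorta, and KDR was lowest in AoV. Calls between tissues needed an adjusted p under 0.05 (Benjamini-Hochberg, over the 15372 genes tested) and more than a 1.5-fold difference, with edgeR's quasi-likelihood test on the 34 Ctrl libraries. Of the 70 comparisons of a gene between 2 tissues, 35 passed. PECAM1 and TEK passed in 7 of 10 pairs of tissues each, CDH5 in 6, NOS3, TIE1 and VWF in 4, and KDR in 3.

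NOS3 had the largest tissue difference of the set. Its level in Ctrl Ao was 1.41, 4.19 and 7.10 CPM (lowest, median and highest of 7), against 34.8, 103 and 368 CPM in AoV, and no Ao library reached any AoV library. The log2 difference between AoV and Ao was 5.08 ± 0.67 (SE, adjusted p = 1.68e-07, edgeR), and between PV and Ao 4.99. TEK had mean levels of 17.3 CPM in Ao, 75.7 in AoV, 110 in MV, 246.7 in TV and 354 in PV, where the mean of MV lies between 3 libraries at 16.5 to 23.1 CPM and 3 at 170 to 229.7 CPM. Neighbours in that order from AoV upwards did not pass the test (AoV and MV, MV and TV, TV and PV), whereas PV exceeded AoV by 2.21 and MV by 1.68 on the log2 scale. The means of PECAM1, split in MV in the same way, had the same order, at 43.4, 163, 227, 448 and 662 CPM, with PV above Ao by 3.92, above AoV by 2.01 and above MV by 1.55. The difference of PV from MV was close to the threshold (adjusted p = 0.0493) and was lost without a filter (0.0776) and without any 1 of 4 of the 7 rabbits, and that of TV from AoV was lost without a filter as well (0.0534, edgeR).

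CDH5 was higher in PV and TV, at 93.9 and 81.3 CPM on average, than in Ao at 17.5 CPM, AoV at 36.6 CPM and MV at 37.4 CPM, where the difference of TV from MV did not pass. The call between TV and AoV was lost without any 1 of 6 of the 7 rabbits (adjusted p from 0.0616 to 0.0911), and that between PV and MV without any 1 of 3 rabbits (0.0677 to 0.118, edgeR). The difference of AoV from Ao, 1.06 (adjusted p = 0.0334, edgeR), was lost with the rabbit as a block (1.01, adjusted p = 0.0638). VWF ran from 29.3 CPM in Ao to 153.99 CPM in TV, and TIE1 from 1.73 CPM in Ao to 11.9 CPM in AoV. For both genes every valve exceeded the aorta and no pair of valves passed. KDR had another order, since its mean of 37.3 CPM in Ctrl Ao was above its 15.7 CPM in AoV by 1.24 on the log2 scale (SE 0.52, adjusted p = 0.0404, edgeR) and below none of the valves by the thresholds. Its level in TV was 80.9 CPM and in PV 67.3 CPM, above AoV by 2.36 and 2.09. The lower level in AoV than in Ao was lost with DESeq2's size factors (adjusted p = 0.0542), with plate as a covariate (0.0818) and without any filter (0.0775, edgeR). With plate as a covariate KDR was called lower in Ao than in PV (1.53, adjusted p = 0.0314) and TV (1.88, adjusted p = 0.0109, edgeR), as the other 6 genes were.

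**Figure D1:**
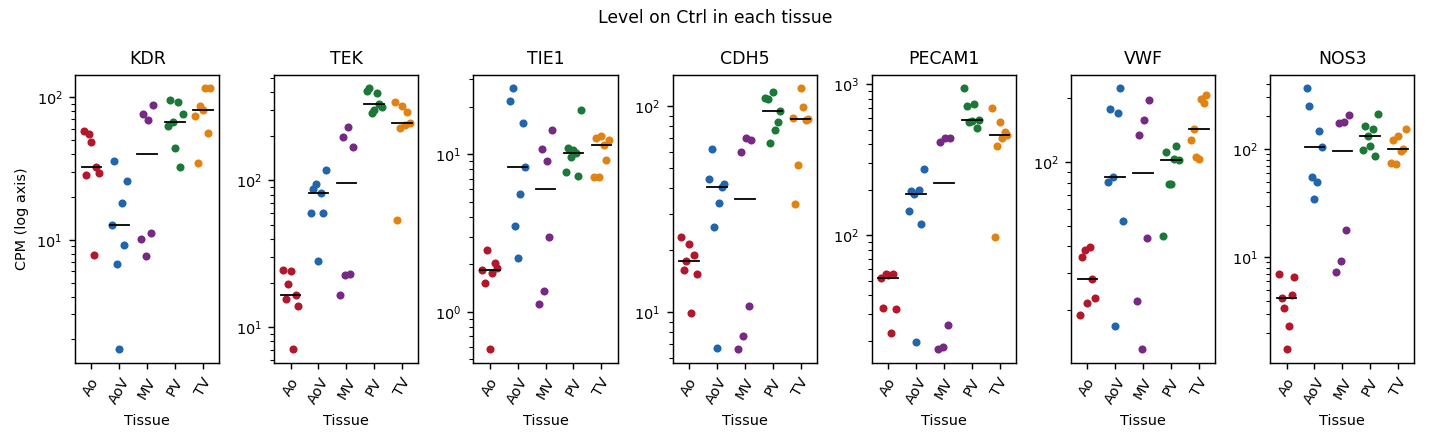
Level of each gene in Ctrl rabbits, in CPM on a log axis, by tissue (Ao for the aorta and AoV, MV, PV and TV for the aortic, mitral, pulmonary and tricuspid valves); each point is 1 library and each black line the median of 7 libraries (6 in MV). NOS3 lay between 1.41 and 7.10 CPM in Ao and between 34.8 and 368 CPM in AoV, and PECAM1 in MV split into 3 libraries at 17.5 to 25.4 CPM and 3 at 416 to 444 CPM.

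The share of members called has to be read against that of all genes. AoV and Ao differed in 49.6% of all genes tested and in 7 of 7 members (6 higher and KDR lower in AoV). The background was 31% between MV and Ao (5 of 7 members), 37.5% between PV and Ao (6 of 7), 30.2% between TV and Ao (6 of 7), 48.2% between PV and AoV (4 of 7), 38.2% between TV and AoV (4 of 7) and 22.2% between PV and MV (3 of 7). No member was called between MV and AoV, TV and MV, or TV and PV, where 2.75%, 5.33% and 10.7% of genes were. In those 21 comparisons edgeR gave 3 unadjusted p-values under 0.05 and DESeq2 no call.

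In the aorta, 6 of the 7 genes rose with CHT and the same 6 with IR/CHT, VWF the most and TEK the least, while KDR passed in neither. With Lard, TEK alone passed the thresholds, although all 7 fold changes were above 1. All 7 had an unadjusted p under 0.05 with Lard (edgeR), and DESeq2 called 3, TEK, VWF and PECAM1. IR/CHT and CHT did not differ in any of the 7 by the thresholds. The 3 comparisons with Ctrl use the same Ctrl libraries. In Ao, 14777 genes were tested and 19.4% were called with CHT (14.2% higher), 2.61% with Lard (2.57% higher), 34.3% with IR/CHT (22.2% higher) and 0.596% between IR/CHT and CHT. The median log2 fold change of the members was 1.76 with CHT, 0.97 with Lard and 1.98 with IR/CHT, where that of all genes was -0.04, 0.01 and 0.00.

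VWF, the platelet tether, was at 18.9, 28.2 and 39.6 CPM (lowest, median, highest) in Ctrl Ao, 34.4, 251.4 and 434 CPM with CHT, 30.1, 80.7 and 203 CPM with Lard and 63.4, 332 and 673 CPM with IR/CHT. All 7 IR/CHT libraries and 5 of 6 CHT libraries lay above every Ctrl library. By edgeR's test VWF rose by 3.07 ± 0.52 (log2 ± SE, adjusted p = 5.41e-05) with CHT, an 8.42-fold change, and by 3.59 ± 0.52 (adjusted p = 3.6e-06) with IR/CHT. Its difference with Lard, 1.66 ± 0.48, did not pass (adjusted p = 0.0628, edgeR), with 6 of 7 Lard libraries above all Ctrl libraries, while DESeq2 called it (adjusted p = 0.00999).

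NOS3 was at 1.41, 4.19 and 7.10 CPM in Ctrl Ao, 2.61, 20.1 and 38.7 CPM with CHT, 4.12, 5.28 and 27.5 CPM with Lard and 3.93, 23.6 and 42.6 CPM with IR/CHT. It rose by 2.23 ± 0.54 with CHT (adjusted p = 0.00284, edgeR) and by 2.63 ± 0.53 with IR/CHT (adjusted p = 0.000211, edgeR). The highest CHT and IR/CHT Ao libraries just reached the range of Ctrl AoV, which started at 34.8 CPM. In Lard Ao, 3 libraries lay above the Ctrl range and 4 inside it (1.32 ± 0.52, adjusted p = 0.198, edgeR).

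The junction genes among the 7, PECAM1 and CDH5, were both called higher in Ao with CHT and with IR/CHT, and neither with Lard in edgeR. PECAM1 was at 22.5, 51.8 and 55.1 CPM in Ctrl Ao, 43.2, 150 and 281 CPM with CHT, 57.2, 75.5 and 142 CPM with Lard and 59.9, 166.1 and 228.01 CPM with IR/CHT. Neither the Lard nor the IR/CHT libraries overlapped with Ctrl. CDH5 was at 9.89, 17.8 and 23.3 CPM in Ctrl Ao, 14.8, 44.3 and 81.0 CPM with CHT, 21.2, 29.8 and 43.2 CPM with Lard and 26.1, 55.1 and 81.5 CPM with IR/CHT. PECAM1 rose by 1.958 ± 0.34 and CDH5 by 1.52 ± 0.29 with CHT (adjusted p = 7.28e-05 and 0.000234, edgeR). With IR/CHT they rose by 1.98 ± 0.33 and 1.72 ± 0.28 (adjusted p = 2.15e-05 and 1.9e-05, edgeR). With Lard their differences were 0.97 ± 0.32 and 0.82 ± 0.28, and neither passed in edgeR (adjusted p = 0.109 and 0.123), while DESeq2 called PECAM1 (adjusted p = 0.0491). Counted by groups that do not overlap with Ctrl, 0 of 7 members stood apart with CHT (10% of all genes), 1 with Lard (PECAM1; 0.298%) and 3 with IR/CHT (PECAM1, VWF and CDH5; 19.5%).

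Of the Tie receptors, TEK was at 7.06, 16.5 and 24.4 CPM in Ctrl Ao, 18.9, 39.1 and 51.2 CPM with CHT, 19.6, 32.6 and 57.7 CPM with Lard and 20.4, 42.0 and 54.4 CPM with IR/CHT. It rose with each treatment, by 1.12 ± 0.27 with CHT, 1.08 ± 0.26 with Lard and 1.29 ± 0.26 with IR/CHT (adjusted p = 0.0025, 0.0214 and 0.000211, edgeR). The Lard call was lost without Lard Ao replicate L562 (adjusted p = 0.0586) or L575 (0.0695), and when only the Lard and Ctrl libraries were fitted (0.073, edgeR). TIE1 was at 0.579, 1.86 and 2.45 CPM in Ctrl Ao, 1.62, 6.60 and 8.67 CPM with CHT, 1.24, 2.89 and 5.46 CPM with Lard and 1.66, 7.02 and 10.5 CPM with IR/CHT. It rose by 1.76 ± 0.42 with CHT and 2.06 ± 0.41 with IR/CHT (adjusted p = 0.00241 and 0.000172, edgeR), and its 0.85 ± 0.41 with Lard did not pass (adjusted p = 0.304).

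KDR, the VEGF receptor, did not pass in any comparison in Ao. It was at 7.87, 32.7 and 58.4 CPM in Ctrl Ao, 42.1, 50.4 and 65.1 CPM with CHT, 47.3, 56.1 and 71.3 CPM with Lard and 24.4, 31.2 and 54.1 CPM with IR/CHT. All 4 groups overlapped. Its log2 fold change was 0.48 with CHT (95% interval -0.05 to 1.01), 0.63 with Lard (0.12 to 1.14) and -0.01 with IR/CHT (-0.52 to 0.50), with adjusted p = 0.19, 0.224 and 0.969 (edgeR). IR/CHT lay below CHT in 5 of 7 libraries, and that difference, -0.49 (-1.02 to 0.03), did not pass either (adjusted p = 0.267, edgeR). The intervals of the other 6 genes between IR/CHT and CHT were also wide, from -0.62 to 0.67 for PECAM1 and from -0.44 to 1.48 for VWF, and edgeR gave no unadjusted p under 0.05 for any of the 7 and DESeq2 no call.

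**Figure D2:**
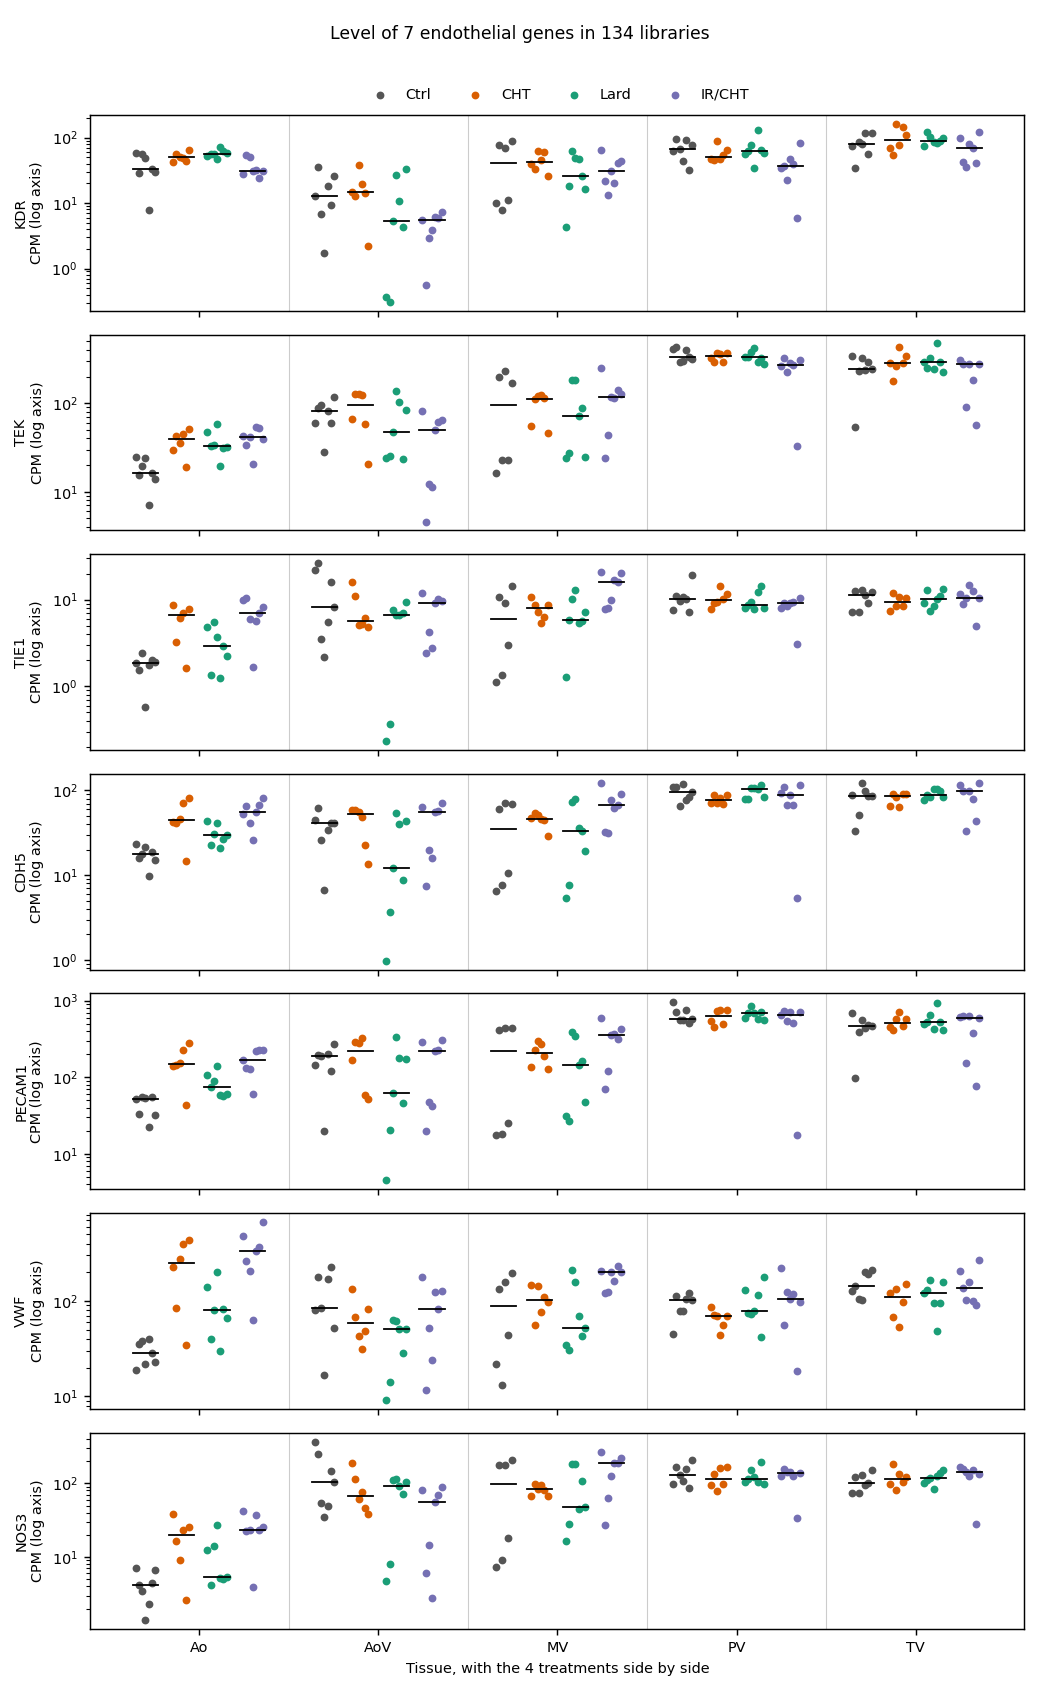
Level of each gene in CPM on a log axis in each library, 1 point per library, with the 4 treatments side by side in each tissue and a black line at each median. In Ao the CHT and IR/CHT points of VWF, between 34.4 and 673 CPM, lay mostly above the Ctrl points, which ended at 39.6 CPM, and in the valves the groups overlapped.

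Single aorta libraries did not follow their group. CHT replicate L573 was the lowest CHT library for 6 of the 7 genes, with PECAM1 at 43.2 CPM, VWF at 34.4 CPM and NOS3 at 2.61 CPM, all within the Ctrl range. IR/CHT replicate L579 was the lowest of its group for 6 of 7, with VWF at 63.4 CPM and NOS3 at 3.93 CPM. The same 2 libraries had a high smooth muscle sum, 81176 CPM for L573 where CHT ranged from 33427 to 84802 CPM, and 63392 CPM for L579, the highest of IR/CHT. The CHT library with the highest sum, L560 at 84802 CPM, was lowest for 0 of the 7 genes. At the other end, CHT replicate L574 was the highest for 5 of the 7 genes and had the lowest smooth muscle sum of its group. In Ctrl, replicate L569 was lowest for 4 of the 7, with KDR at 7.87 CPM where the other 6 libraries were between 28.3 and 58.4 CPM, and it had the highest smooth muscle sum, 119376 CPM. Lard replicate L576, lowest for 4, had the highest sum of its group, 109517 CPM. Lard replicate L578 had the lowest, 54703 CPM, and was highest for 0 of the 7. IR/CHT replicate L566 had the lowest sum of its group, 11865 CPM, and was highest for 2.

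Markers of other cells moved with the aortic differences. The summed level of 12 macrophage genes was 70.9 to 305 CPM in Ctrl Ao, 494 to 1293 CPM with CHT, 200 to 521 CPM with Lard and 760 to 2548 CPM with IR/CHT, and 10, 6 and 12 of the 12 genes rose. CD68, a macrophage marker, was at 8.17 to 19.1 CPM in Ctrl Ao, 146 to 293 CPM with CHT and 165 to 652 CPM with IR/CHT. Of 7 smooth muscle genes, 3 fell with CHT, 0 with Lard and 7 with IR/CHT, and their sum was 33427 to 84802 CPM, 54703 to 109517 CPM and 11865 to 63392 CPM. MYH11, the smooth muscle myosin, fell by 0.83 with CHT and by 1.54 with IR/CHT on the log2 scale. All 7 genes of cell division tested rose with CHT and with IR/CHT. Of 3 neutrophil genes tested, 1 rose with CHT, 2 with Lard and 2 with IR/CHT. MMP9, which macrophages make too, was at 0 to 0.441 CPM in Ctrl Ao, 0.871 to 16.4 CPM with CHT, 0.249 to 110.7 CPM with Lard and 1.35 to 67.5 CPM with IR/CHT, and the sum over the neutrophil list was at most 2.83 CPM in Ctrl and at most 137.8 CPM with Lard. Of 9 heart muscle genes, 5 were called higher in IR/CHT than in CHT Ao, among them MYH7 (6.25), MYL2 (6.30) and MYBPC3 (4.98). IR/CHT replicate L566 had a heart muscle sum of 3191 CPM where the other 6 were between 257.4 and 769 CPM, and the lowest smooth muscle sum, 11865 CPM. Without it, the same 6 of the 7 genes were called with IR/CHT in Ao. VWF is also made by megakaryocytes and is held in platelets, so their markers were read too. ITGA2B, the platelet integrin, was at 1.16 to 3.18 CPM in Ctrl Ao and 2.68 to 5.25 CPM with IR/CHT without a call, and GP9 and GP1BA had a median of 0 in Ao. TUBB1, the platelet tubulin, fell in Ao with CHT by 2.86 (adjusted p = 0.0409, edgeR), from 0.127 to 10.1 CPM in Ctrl to 0 to 0.804 CPM. In AoV the summed level of the 4 platelet genes was 13.5 to 77.8 CPM in Ctrl, 4.29 to 20.1 CPM with CHT, 11.3 to 36.6 CPM with Lard and 3.86 to 10.5 CPM with IR/CHT, the last without overlap with Ctrl. There ITGA2B fell by 1.27 with CHT and by 2.31 with IR/CHT, and TUBB1 by 2.40 with IR/CHT. The part of these cell types in the endothelial differences was not tested.

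In the 4 valves no treatment changed any of the 7 genes by the thresholds, in 112 comparisons of a gene, a valve and a treatment. edgeR gave 7 unadjusted p-values under 0.05 among them and DESeq2 3 calls, all in AoV. The background differed widely between the valves. For CHT, Lard and IR/CHT each set against Ctrl, 11.9%, 0.234% and 42.8% of genes were called in AoV, 5.62%, 0% and 17.7% in MV, 0.159%, 0% and 0.706% in PV, and 0.163%, 0% and 0.231% in TV. Between IR/CHT and CHT the shares were 19.7%, 0.189%, 0.0761% and 0%. In AoV, genes called higher were 0.026% with Lard and 9.9% between IR/CHT and CHT.

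The spread within groups was widest in AoV and MV. The highest library of a group of one gene was, at the median of 28 groups, 12.6 times the lowest in AoV (3.26 to 108 times) and 9.02 times in MV, against 4.02 times in Ao, 2.08 times in PV and 2.61 times in TV. In Ctrl MV the split was complete. PECAM1 was at 17.5, 18.3 and 25.4 CPM in replicates L156, L199 and L262 and at 416, 438 and 444 CPM in L183, L278 and L241, and all 7 genes separated the same 3 libraries from the same other 3. The 3 low libraries were on plate 1, as was L183, and the other 2 on plate 2. Their macrophage sums were 231.3 to 247.002 CPM, against 588 to 687 CPM in the 3 high libraries.

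In AoV, KDR and NOS3 with IR/CHT came closest to the thresholds. KDR was at 1.70, 12.6 and 35.5 CPM in Ctrl AoV, 2.21, 14.5 and 37.6 CPM with CHT, 0.308, 5.36 and 33.5 CPM with Lard and 0.560, 5.53 and 7.37 CPM with IR/CHT. Its log2 difference of IR/CHT from Ctrl was -1.77 ± 0.76 (95% interval -3.26 to -0.28, adjusted p = 0.0564, edgeR) and from CHT -1.88 ± 0.78 (adjusted p = 0.0844, edgeR). The groups overlapped, with 1 of 7 IR/CHT libraries below all Ctrl libraries. DESeq2 called both differences (adjusted p = 0.0237 and 0.0473), so that the side of the threshold depended on the tool.

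NOS3 was at 34.8, 103 and 368 CPM in Ctrl AoV, 38.0, 67.9 and 187.6 CPM with CHT, 4.75, 92.4 and 115 CPM with Lard and 2.76, 56.4 and 89.5 CPM with IR/CHT, with 3 of 7 IR/CHT libraries below all Ctrl libraries. The difference was -1.66 ± 0.71 (adjusted p = 0.0552, edgeR; 0.0206, DESeq2). TEK was at 28.4, 82.4 and 117 CPM in Ctrl AoV and 4.61, 49.5 and 82.2 CPM with IR/CHT (-0.89 ± 0.53, adjusted p = 0.17, edgeR). PECAM1, in contrast to these values, was at 19.7, 188.1 and 274.03 CPM in Ctrl AoV and 20.1, 220 and 305 CPM with IR/CHT, a log2 difference of 0.01 (95% interval -1.35 to 1.36). CDH5 was at 6.69, 40.8 and 62.2 CPM and 7.53, 55.3 and 71.5 CPM, a difference of 0.17 (-1.03 to 1.38). For VWF and TIE1 the differences were -0.44 and -0.74. With Lard, VWF was at 9.14, 51.2 and 63.1 CPM against 16.9, 84.7 and 225 CPM in Ctrl AoV (-1.53 ± 0.55, adjusted p = 0.393, edgeR).

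In MV with IR/CHT, 6 of the 7 log2 fold changes were above 0, where 2 were in AoV, and none was called in either valve. Among the 6 in MV was TEK at 0.06 ± 0.62. TIE1 was at 1.13, 6.02 and 14.2 CPM in Ctrl MV and 7.80, 16.1 and 20.6 CPM with IR/CHT, with 4 of 7 libraries above all Ctrl libraries (1.07 ± 0.48, adjusted p = 0.103, edgeR). VWF was at 13.0, 88.7 and 195.8 CPM and 122, 202 and 233.2 CPM (0.88 ± 0.51, adjusted p = 0.215, edgeR). KDR, at 7.73, 40.4 and 88.1 CPM in Ctrl MV and 13.1, 30.6 and 65.1 CPM with IR/CHT, had a difference of -0.42. The low Ctrl MV libraries set the lower ends of these ranges.

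In PV and TV, PECAM1 and TEK had their highest levels. PECAM1 was at 514, 582.4 and 950.3 CPM in Ctrl PV and TEK at 290, 331 and 429 CPM. IR/CHT PV replicate L275 was lowest for all 7 genes, with PECAM1 at 17.9 CPM where the other 6 IR/CHT libraries were between 516 and 733 CPM, and its macrophage sum of 278.4 CPM was also the lowest of its group. TEK in IR/CHT PV was below all Ctrl libraries in 5 of 7 libraries (-0.54 ± 0.25, adjusted p = 0.312, edgeR), and KDR had a difference of -0.80 ± 0.35 (adjusted p = 0.278, edgeR). In TV, PECAM1 was at 97.3, 462 and 699 CPM with Ctrl and 76.7, 589 and 631 CPM with IR/CHT. Its low libraries were Ctrl replicate L168 and IR/CHT replicates L197 and L276, and the largest difference of any of the 7 genes from Ctrl in TV was that of VWF with CHT (-0.58 ± 0.28, adjusted p = 0.619, edgeR).

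**Figure D3:**
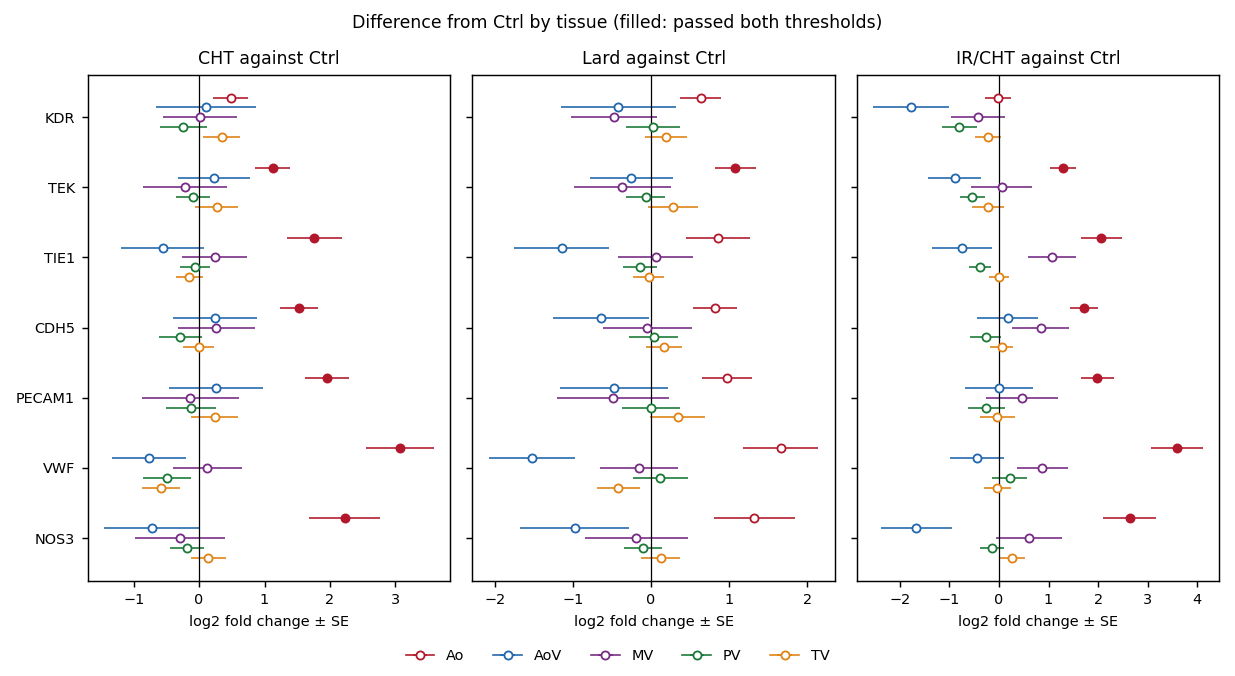
Log2 fold change ± SE of each gene with CHT, Lard and IR/CHT against Ctrl, by tissue (colours); filled points passed an adjusted p of 0.05 and a fold change of 1.5 in edgeR's test. All 13 filled points belong to Ao, and in AoV KDR and NOS3 with IR/CHT sit at -1.77 and -1.66 with open symbols.

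Whether the response itself differed between tissues was tested as an interaction in 1 model of all tissues and treatments, called at an adjusted p under 0.05 over 17030 genes. Of 84 such tests, 13 passed, 11 of them between AoV and Ao. There, the difference of AoV from Ao was below 0 for all 7 genes and each treatment, and the 11 called were VWF and TIE1 with each treatment, NOS3 with CHT and IR/CHT, and TEK, PECAM1 and KDR with IR/CHT. The comparisons share Ctrl libraries, so that the treatments are not independent of each other. Among all genes 10.3% were called between AoV and Ao with CHT (3 of 7 members), 4.8% with Lard (2 of 7) and 36.7% with IR/CHT (6 of 7). The median difference over all genes was -0.06 with CHT, -0.12 with Lard and -0.12 with IR/CHT, and it was -0.13 between AoV and PV with IR/CHT.

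The response of VWF was smaller in AoV than in Ao by 3.81 ± 0.69 with CHT, 3.18 ± 0.66 with Lard and 3.97 ± 0.66 with IR/CHT on the log2 scale (adjusted p = 4.99e-05, 0.000835 and 7.18e-07, edgeR). That of NOS3 differed by -2.93 ± 0.80 with CHT (adjusted p = 0.0111, edgeR) and -4.25 ± 0.79 with IR/CHT (6.65e-06), the largest difference of the set. TIE1 differed by -2.30 ± 0.63, -1.99 ± 0.61 and -2.74 ± 0.61 with the 3 treatments (adjusted p = 0.0111, 0.0382 and 0.000157, edgeR). With only Ao and AoV fitted, TIE1 lost its call with CHT (adjusted p = 0.0572) and with Lard (0.124), and with Lard also without a filter (0.0607, edgeR). With IR/CHT, TEK (-2.12), PECAM1 (-1.92) and KDR (-1.69) passed as well (adjusted p = 0.00472, 0.0404 and 0.0451, edgeR). CDH5 did not, at -1.48 ± 0.63 (adjusted p = 0.0552, edgeR). KDR no longer passed with plate as a covariate (adjusted p = 0.0563), without a filter (0.0686) or with only Ao and AoV fitted (0.0604), and PECAM1 did not without a filter (0.0632, edgeR). All Ao libraries were on plate 2. With the rabbit as a block, KDR no longer passed either (adjusted p = 0.0625), and CDH5 with IR/CHT (0.0429) and NOS3 with Lard (0.0402, edgeR) did.

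Between MV and AoV, NOS3 and TIE1 differed with IR/CHT by 2.31 ± 0.77 and 1.84 ± 0.60 (adjusted p = 0.024 and 0.0217, edgeR), 2 of 7 members where 18.8% of genes were called. Both had the higher fold change in MV, and with the rabbit as a block VWF passed too (1.68, adjusted p = 0.0354, edgeR). With only the libraries of MV and AoV fitted, neither NOS3 (adjusted p = 0.108) nor TIE1 (0.104, edgeR) passed, which left no call between the 2 valves. Neither CHT nor Lard gave a call there (0% of genes in both). Between AoV and PV no member was called (5.11%, 0.112% and 40.8% of genes with CHT, Lard and IR/CHT), nor between MV and TV (2.2%, 0% and 8.21%). In the 8 comparisons of tissues and treatments without a call, 56 tests, edgeR gave 4 unadjusted p-values under 0.05. No second tool was run on the interactions.

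**Figure D4:**
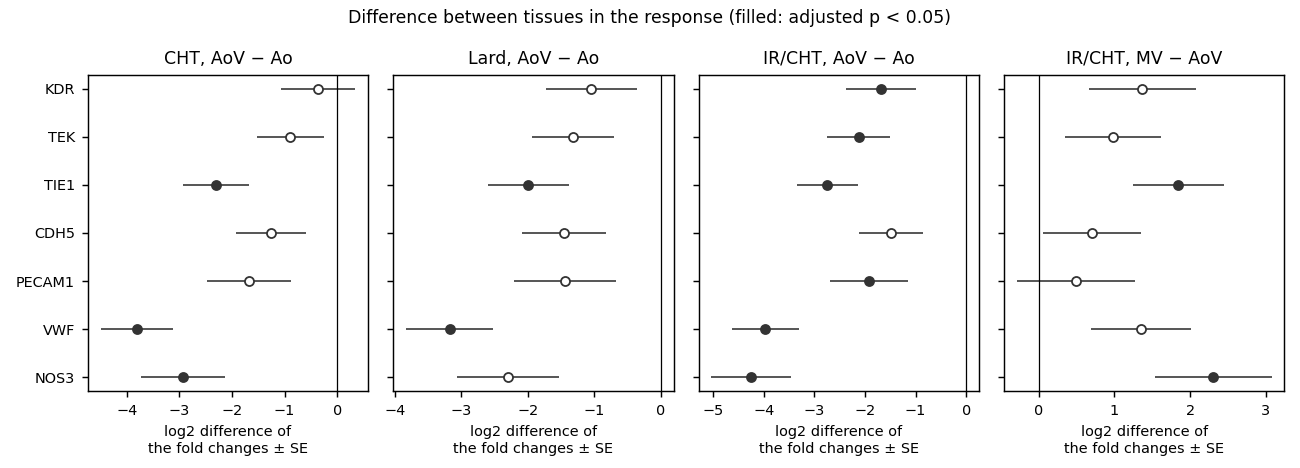
Difference between tissues in the log2 fold change against Ctrl, ± SE, for each gene; filled points had an adjusted p under 0.05 in edgeR's test over the libraries of all tissues. In the 3 panels of AoV against Ao all points lie left of 0, down to -4.25 for NOS3 with IR/CHT, and in the panel of MV against AoV only NOS3 at 2.31 and TIE1 at 1.84 are filled.

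Pairs of the 7 genes varied together between libraries of one tissue and treatment, to a degree that differed between tissues. With the mean of each treatment removed from the log2 CPM, Pearson's r was computed for the 21 pairs of genes in each tissue, 105 in all, over 27 libraries (20 in MV, where the split Ctrl libraries were left out), with 100000 permutations. The median r was 0.66 in Ao, 0.77 in AoV, 0.79 in MV, 0.71 in PV and 0.33 in TV, and 15, 21, 21, 13 and 8 of 21 pairs had a Benjamini-Hochberg adjusted permutation p under 0.05. The share of pairs of all genes that would pass was not computed, so these counts do not set the 7 genes apart from other genes. The 2 libraries farthest from the tissue median in 1 gene of each pair, in log2 CPM with treatment means kept, were also left out. The median r was then 0.72, 0.73, 0.71, 0.39 and 0.083. These libraries differed between pairs and need not be outliers of the centred values. For the pairs of TEK in Ao they were Ctrl replicates L569 and L571. By rank, the median Spearman's rho was 0.53, 0.70, 0.70, 0.48 and 0.24, and 13, 21, 20, 11 and 6 of 21 pairs passed. Leaving out the farthest libraries, such as IR/CHT PV replicate L275, lowered r the most in PV and TV. These correlations describe the samples. Plate was not removed before them, and the part of plate or of what the tissue pieces held was not tested.

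PECAM1 and TEK had r of 0.87 in Ao, 0.89 in AoV, 0.97 in MV, 0.98 in PV and 0.98 in TV, and 0.91 and 0.95 in PV and TV without the 2 farthest libraries. PECAM1 and CDH5 had r of 0.93, 0.96, 0.94, 0.95 and 0.81 in the same order, and 0.91, 0.94, 0.93, 0.74 and 0.71 without the 2 farthest. TIE1 and NOS3 had 0.81, 0.92, 0.79, 0.86 and 0.80, and 0.79, 0.93, 0.68, 0.73 and 0.64 without them. For VWF in the right heart, r with PECAM1 was 0.55 in PV and -0.26 without the 2 farthest libraries, and 0.20 in TV and 0.41 without the 2 farthest there, L231 and L272, the latter being the library with the low TBX5. In TV, VWF went with KDR (r = 0.53, Spearman's rho = 0.56, adjusted permutation p = 0.012), while NOS3 with KDR (0.069) and TIE1 with TEK (0.16) were looser. KDR had lower r in the aorta, with r of 0.04 with NOS3, -0.03 with TIE1, -0.16 with VWF, 0.27 with PECAM1, 0.32 with CDH5 and 0.46 with TEK, of which none had an adjusted permutation p under 0.05. Across tissues of the same rabbit, the deviation of a gene in AoV had a median r over the 7 genes of 0.52 with that in MV, and PV of 0.49 with TV, while the other 8 pairs of tissues were between -0.15 and 0.16, over 26 or 27 rabbits. The split Ctrl MV libraries were kept in these values, which were not computed without them.

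**Figure D5:**
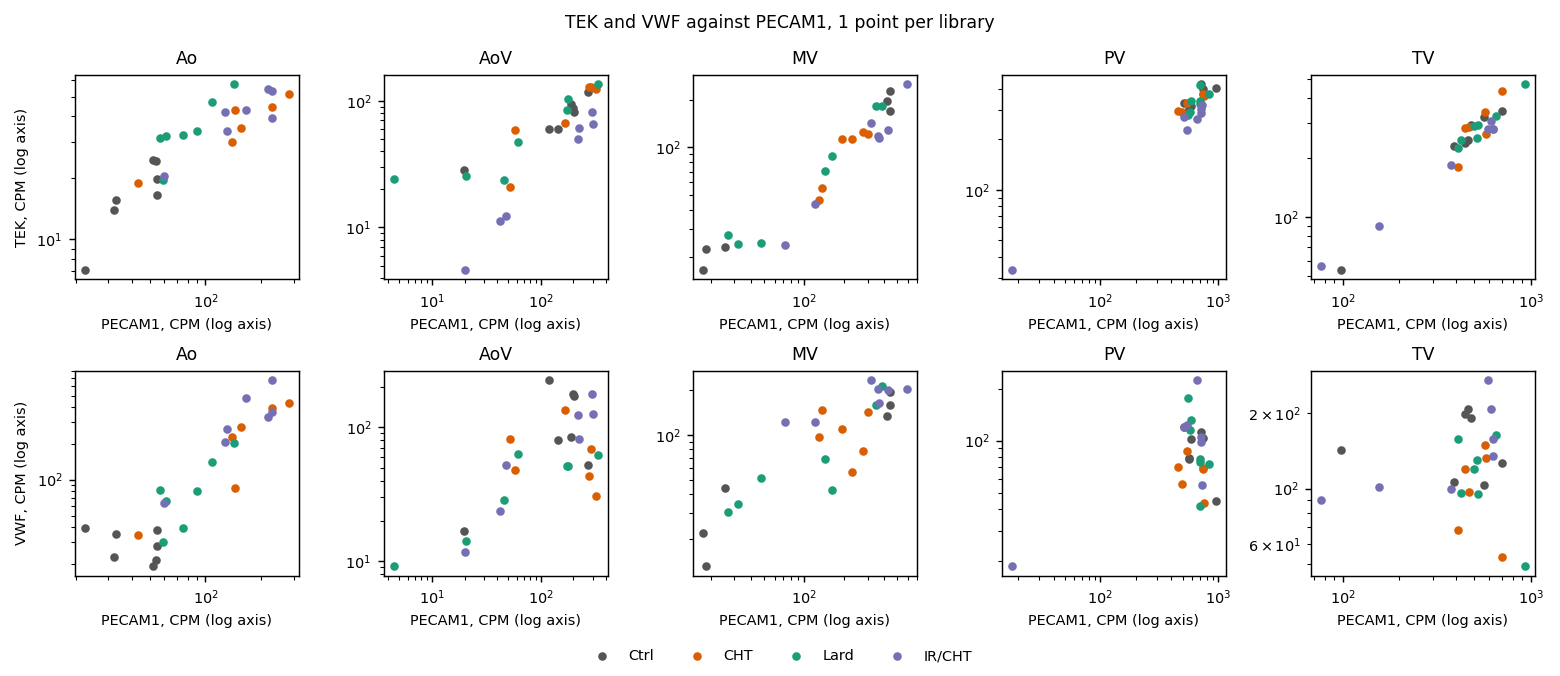
TEK (upper row) and VWF (lower row) against PECAM1, all in CPM on log axes, in each tissue; each point is 1 library, coloured by treatment. TEK followed PECAM1 in every tissue (r from 0.87 to 0.98), while VWF had lower r in PV and TV (0.55 and 0.20, or -0.26 and 0.41 without the 2 farthest libraries of each), and the lone point at the lower left of PV is IR/CHT replicate L275 at 17.9 CPM PECAM1.

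Set against CDH5 in the same library, the genes were not in a fixed ratio. In Ao the mean log2 ratio of VWF to CDH5 was 0.73 ± 0.77 (SD) with Ctrl, 2.02 ± 0.69 with CHT, 1.36 ± 0.60 with Lard and 2.41 ± 0.64 with IR/CHT. That of KDR was 0.91 ± 0.62, 0.22 ± 0.74, 0.94 ± 0.56 and -0.62 ± 0.72, lower than Ctrl with CHT and IR/CHT and close to it with Lard. In AoV, IR/CHT differed from Ctrl in TEK (1.17 ± 0.69 with Ctrl, -0.24 ± 0.41 with IR/CHT), NOS3 (1.74 ± 0.84 and -0.33 ± 1.01) and KDR (-1.47 ± 0.64 and -3.11 ± 0.57) by more than the SDs, and in PECAM1 (2.08 ± 0.59 and 1.77 ± 0.38) by less. In MV it did so in KDR (0.23 ± 0.25 and -1.08 ± 0.36) and TEK (1.45 ± 0.24 and 0.59 ± 0.53), but not in NOS3 (0.94 ± 0.64 and 0.99 ± 0.63). KDR differed by less than the SDs in PV (-0.54 ± 0.67 and -0.94 ± 0.64) and TV (-0.001 ± 0.51 and -0.28 ± 0.43). These ratios are given without a test, and they are on a scale of read pairs that does not allow for gene length.

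The genes most like the set were found among 11243 genes by their correlation with the mean log2 CPM of the 7 genes over the libraries of all tissues, after subtracting the mean of every tissue and treatment group. They were AFAP1L1 (r = 0.954), ADCY4 (0.902), FLT1 (0.8998), SLCO2A1 (0.897), S1PR1 (0.893), GJA5 (0.890), EMCN (0.876), ICA1 (0.862), PTPRB (0.860) and MYCT1 (0.852), of which FLT1, S1PR1, GJA5, EMCN, PTPRB and MYCT1 are on the endothelial lists used here. Within single tissues r ran from 0.593 (ADCY4 in TV) and 0.598 (ICA1 in Ao) to 0.983 (S1PR1 in MV). The split Ctrl MV libraries were kept here. For single genes the closest were EMCN for PECAM1 (0.954) and TEK (0.935), AFAP1L1 for CDH5 (0.953) and KDR (0.848), PCDH12 for TIE1 (0.891), ADCY4 for NOS3 (0.902) and GJA4 for VWF (0.680). VWF thus had the loosest partner of the 7.

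Around the 7 genes, lists of ligands, partners and other endothelial genes were read in the same fits. In Ao, 82 such genes were tested. With CHT 28 rose and 6 fell, with a median log2 fold change of 0.39, with Lard 3 rose and none fell (0.36), and with IR/CHT 38 rose and 16 fell (0.56). In AoV, of 81 genes, 4 rose and 3 fell with CHT, none with Lard, and 12 rose and 26 fell with IR/CHT (-0.29). The calls in AoV were thus 7 of 81 with CHT, where 11.9% of all genes were called, and 38 of 81 with IR/CHT, close to the 42.8% of all genes, and the counts of the single lists in AoV have to be read against these shares. Between IR/CHT and CHT in AoV, 9 of 81 were higher and 17 lower, where 19.7% of all genes were called. In Ao the 34, 3 and 54 of 82 stand beside 19.4%, 2.61% and 34.3%. MV had 4 and 2 with CHT and 10 and 7 with IR/CHT of 81 genes (5.62% and 17.7% of all genes), PV 1 lower with IR/CHT of 80, VEGFC (-0.76 on the log2 scale), and TV none of 81.

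Among the partners of TEK and TIE1, 6 were tested. ANGPT1, the ligand that activates TEK, was at 23.4, 58.4 and 85.0 CPM in Ctrl AoV and 2.37, 7.87 and 11.7 CPM with IR/CHT, without overlap, and fell by 2.93 ± 0.33 (adjusted p = 4.35e-08, edgeR). ANGPT2, which can block that ligand, was at 0.225, 0.789 and 1.48 CPM and 2.05, 4.96 and 10.8 CPM, and rose by 2.76 ± 0.54 (adjusted p = 0.000123, edgeR). Both also differed between IR/CHT and CHT in AoV (-2.16 and 1.77). SVEP1, which binds TIE1, fell by 1.35 in IR/CHT AoV. In IR/CHT MV, ANGPT1 fell by 1.02 (adjusted p = 0.0277, edgeR), while ANGPT2 (0.55) did not pass. In Ao, PTPRB, the phosphatase that dampens TEK, rose by 0.80 with CHT and 0.69 with IR/CHT, ANGPTL1 fell by 1.06 and 2.04, ANGPT2 fell by 0.64 with IR/CHT, ANGPT4, another ligand of TEK, rose by 1.66 with IR/CHT (adjusted p = 0.0193, edgeR), and ANGPT1 passed in no comparison with Ctrl.

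Of the 8 ligands and receptors around KDR, 4 rose in CHT Ao and none fell. VEGFA, the ligand of KDR, rose by 1.75 with CHT and 2.03 with IR/CHT in Ao, from 11.6 to 16.7 CPM in Ctrl to 8.59 to 100.1 and 22.0 to 129 CPM. FLT1 (VEGF receptor 1) was at 8.76, 12.5 and 18.9 CPM in Ctrl Ao, 18.7, 40.1 and 50.04 CPM with CHT, 14.9, 32.2 and 53.1 CPM with Lard and 22.8, 41.2 and 52.3 CPM with IR/CHT. It rose by 1.52, 1.34 and 1.60 (adjusted p = 9.93e-05, 0.00495 and 1.7e-05, edgeR), where KDR did not pass. NRP1, a co-receptor, rose by 1.23 and 1.42 with CHT and IR/CHT in Ao, by 0.90 and 1.76 in AoV and by 0.79 with IR/CHT in MV, and PGF rose with each treatment in Ao (1.38, 1.49 and 2.31). In IR/CHT AoV, 2 of 8 rose, NRP2 (2.84) and NRP1, and 2 fell, among them VEGFC (-2.20). FLT4, the VEGFC receptor, passed in none of the comparisons in Ao, AoV and MV.

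Of 14 junction genes, GJA4 and GJA5, connexins of arterial endothelium, were the 2 that rose in CHT Ao, by 1.85 and 1.33. With IR/CHT 4 rose in Ao, GJA4 by 2.50, and 2 fell, TJP1 (ZO-1) by 0.93 and JAM3 by 1.15. TJP1 was also the 1 endothelial gene called between IR/CHT and CHT in Ao (-0.59). In IR/CHT AoV, 6 of 14 fell, with JUP (-1.69), JAM3 (-1.11) and CGNL1 (-1.01) first, and 1 rose. Of 11 genes of nitric oxide production and response, 2 rose and 4 fell with CHT and 2 rose and 5 fell with IR/CHT in Ao. NOSTRIN, which binds NOS3, rose by 3.14 with CHT, 1.97 with Lard and 3.29 with IR/CHT. Among those that fell were genes of the response, PRKG1 (-1.58 with IR/CHT) and the guanylate cyclase subunits GUCY1A1 and GUCY1B1 (-0.65 and -0.76 with CHT). Genes that act on production fell too with IR/CHT in Ao, CAV1, which holds NOS3 in caveolae, by 1.08 and DDAH2, of a family that clears inhibitors of nitric oxide synthases, by 0.71. In IR/CHT AoV, PRKG1 fell by 2.53 and DDAH2 by 1.77, whereas GUCY1B1 rose by 1.51.

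Of 8 genes around VWF in clotting and vessel tone, EDN1 (endothelin-1) was at 1.46, 2.84 and 3.45 CPM in Ctrl Ao, 3.92, 31.6 and 61.1 CPM with CHT and 7.79, 25.8 and 90.4 CPM with IR/CHT. It rose by 3.5996 and 3.79 (adjusted p = 1.17e-05 and 2.57e-06, edgeR), without overlap of either group with Ctrl. SELP (P-selectin), which shares the granules of VWF, rose by 2.77 and 2.83. The adhesion molecules SELE (E-selectin) and ICAM1 rose by 3.29 and 1.91 with CHT and by 4.05 and 2.90 with IR/CHT in Ao. SELE was close to the floor in Ctrl Ao (0 to 0.576 CPM) and reached 0.373 to 4.53 CPM with CHT and 1.17 to 6.05 CPM with IR/CHT. It also rose in AoV with CHT (2.95) and IR/CHT (2.63) and in MV with CHT (2.08, adjusted p = 0.0489, edgeR).

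Of 5 endothelial transcription factors tested, ERG, FLI1 and TAL1 rose in Ao with CHT (0.89, 1.09 and 2.30) and with IR/CHT (0.78, 1.33 and 2.72), and in IR/CHT AoV 3 fell, PROX1 (-2.25), TAL1 (-0.92) and NR2F2 (-0.69). FLI1 and TAL1 are also transcribed in blood cells. Of 20 other endothelial markers in Ao, 11 rose with CHT and 15 with IR/CHT and none fell, with CD93 (2.09 and 2.58) and ICAM2 (1.87 and 2.42) among the most significant. In IR/CHT AoV, 4 of 19 rose, with ACVRL1 at 2.29, and 4 fell, with CD34 (-1.80) and RAMP2 (-1.67) first. Of 6 Notch genes, HEY1 fell in Ao with CHT (-0.70). With IR/CHT 2 rose and 3 fell in Ao, HEY1 by 1.36, HEY2 by 1.09 and JAG1 by 0.65, and 5 of the 6 fell in AoV, HEY1 by 1.74, HEY2 by 1.17 and JAG1 by 0.78. Of 11 genes linked to endothelial to mesenchymal transition, 4 rose and none fell in Ao with CHT and 3 rose and 2 fell with IR/CHT. FN1 and CDH2, which mesenchymal cells express as well, rose with CHT (1.79 and 3.3995) and IR/CHT (1.76 and 3.10). ZEB1, a transcription factor that drives such transitions, fell in IR/CHT Ao by 1.31 (adjusted p = 8.23e-06, edgeR), from 482 to 629 CPM in Ctrl to 101 to 364 CPM, and was lower with IR/CHT than with CHT (-0.89, adjusted p = 0.0405, edgeR). Of 4 lymphatic markers, CCL21 (-1.70) and LYVE1 (-0.91) fell in IR/CHT Ao.

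The macrophage sum rose alongside these differences in AoV too, from 206 to 641 CPM in Ctrl to 886 to 1331 CPM with CHT and 2372 to 2995 CPM with IR/CHT, where 6 and 10 of 12 genes rose. Heart muscle genes fell in AoV with each treatment (8, 6 and 9 of 10), from a sum of 191.4 to 12785 CPM in Ctrl to at most 375 CPM. The 7 endothelial genes were not called in AoV, and the part of either cell type in their spread was not tested. In MV the macrophage sum was 231.3 to 687 CPM in Ctrl and 930 to 1762 CPM with IR/CHT. In PV and TV, 3 of 12 and 2 of 11 macrophage genes rose with IR/CHT. T cell genes rose in Ao (1 of 3 with CHT and with Lard, 3 of 3 with IR/CHT) and in AoV (2 of 3 with CHT and 3 of 3 with IR/CHT). In MV the sum of 4 T cell genes was 0.202 to 0.937 CPM in Ctrl, 2.27 to 10.4 CPM with CHT and 4.60 to 22.4 CPM with IR/CHT. The smooth muscle sum in MV was 736 to 970 CPM in Ctrl, 982 to 1616 CPM with CHT and 710 to 1519 CPM with IR/CHT. Of 9 fibroblast genes, 3 rose with CHT, 1 with Lard and 5 with IR/CHT in Ao, and in IR/CHT AoV 1 rose and 4 fell. Pericyte genes fell in Ao (2 and 3 of 6 with CHT and IR/CHT) and AoV (1 and 3 of 6). ADIPOQ, the adipocyte marker, was at 6.24 to 75.3 CPM in Ao and at most 15.4 CPM in AoV.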

How the data were processed

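The authors sequenced total RNA of tissue samples from 27 rabbits on 2 plates, and the deposited values are raw counts of read pairs per gene, in 1 table per plate, without normalization or pooling. The paper's methods name the nf-core/rnaseq pipeline, the genome OryCun2.0 and the Ensembl annotation, and the submitters' processing notes bcl2fastq 2.20. Groups came from the sample labels and rabbit numbers from the column names. Libraries held 13564979 to 50577676 read pairs. No 2 libraries of a group agreed within sampling noise (384 pairs compared), and no column of sample values was left unused.

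The 7 genes were matched by symbol. They and the lists of further genes were chosen with earlier results of these data known. Named are the 7 genes, a fixed set of partners, up to 3 called genes per list and comparison with the smallest p, and the genes most like the 7.

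In R 4.3.3 with edgeR 4.0.16, genes were filtered by filterByExpr and scaled by TMM, and a robust quasi-likelihood model was fitted per tissue to the 4 treatments, or to 34 Ctrl libraries, or to all libraries for interactions. All tests were two-sided. Calls needed a Benjamini-Hochberg adjusted p under 0.05 and, except for interactions, a fold change over 1.5. In the fits per tissue, with 1 library per rabbit, the p-values measure the spread between rabbits. The fits to the Ctrl libraries and to all libraries had no term for the rabbit. Their p-values mix the spread within and between rabbits, and the rabbit as a block was tried as an alternative. DESeq2 1.42.0, other scalings, filters, samples, plate, the rabbit as a block and leaving out single libraries were tried. Same-numbered libraries come from 1 rabbit, and their deviations had a median correlation of 0.17 to 0.44 between tissues, against 0 otherwise, being over 0.1 in all 26 rabbits between AoV and MV and in 18 to 23 between other tissues. On simulated data for CHT against Ctrl in Ao, with 14485 genes fitted, 70% of the 100 genes changed 2-fold and 100% of the 100 changed 4-fold were called. For the interaction of CHT between AoV and Ao, with 15567 genes fitted, the shares of such genes called were 26% and 92%. The simulated dispersion was 0.1 for every gene, and the 7 genes often spread more (SD of log2 CPM up to 1.43 in Ao), so these shares are not those of the 7. No reference of OryCun2.0 was used here, so that no coordinates, sequences or lengths are given.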

Additional observations from a re-analysis of the deposited data

Results flagged for a closer look

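In groups of 6 or 7 libraries, 20 of 140 groups of one gene, tissue and treatment had a library that stood apart by Dixon's test at 95%, 19 of them on the low side, over 13 libraries. Chance gives about 1 in 20 such groups, and genes of one library are not independent. IR/CHT PV replicate L275 stood low in 5 genes, CDH5 (5.37 CPM, next 67.5), NOS3 (34.02, next 124), PECAM1 (17.9, next 516), TEK (33.3, next 227) and TIE1 (3.04, next 8.10). In other PV libraries, VWF was low in Ctrl replicate L153 (44.7 CPM, next 78.7) and TIE1 was high in Ctrl replicate L279 (19.1, next 10.9), the 1 high value. In TV, Ctrl replicate L168 was low in PECAM1 (97.3 CPM, next 389.8) and TEK (53.7, next 229.1), with a fibroblast sum of 27121 CPM where the other Ctrl TV libraries had 8687 to 11233 CPM and a heart muscle sum of 620.5 CPM where they had 8101 to 41606 CPM, whose part was not tested, and IR/CHT replicate L276 in NOS3 (28.4, next 124).

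In AoV, Ctrl replicate L198 was low in CDH5 (6.69 CPM, next 26.03) and PECAM1 (19.7, next 119), CHT replicate L265 in KDR (2.21, next 13.0) and IR/CHT replicate L178 in KDR (0.560, next 2.91). In MV, CHT replicate L266 was low in CDH5 (29.3 CPM, next 45.3) and Lard replicate L158 in TIE1 (1.29, next 5.36). In Ao, Ctrl replicate L569 was low in KDR (7.87 CPM, next 28.3), Ctrl replicate L568 in TIE1 (0.579, next 1.52), and IR/CHT replicate L579 in NOS3 (3.93, next 22.3) and TIE1 (1.66, next 5.60).

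The 13 interactions past an adjusted p of 0.05 in edgeR's test, given as differences of log2 fold changes, were those of the response in AoV against Ao for VWF (-3.81 with CHT, -3.18 with Lard, -3.97 with IR/CHT), TIE1 (-2.30, -1.99 and -2.74), NOS3 (-2.93 with CHT and -4.25 with IR/CHT), TEK (-2.12 with IR/CHT), PECAM1 (-1.92 with IR/CHT) and KDR (-1.69 with IR/CHT), and of MV against AoV with IR/CHT for NOS3 (2.31) and TIE1 (1.84).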

How the results depend on the processing

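The 6 calls of CHT against Ctrl remained 6 under every setting tried except 1 model of all tissues (5, without TEK, adjusted p = 0.0723). The 6 of IR/CHT became 8 with DESeq2 and with 1 model of all libraries and 7 with DESeq2's size factors or with only the 2 groups compared, KDR or NOS3 in AoV being added. The 1 call of Lard became 3 with DESeq2 (VWF and PECAM1 added) and 0 with only the 2 groups, and with 1 model of all libraries it was VWF (adjusted p = 0.0191) in place of TEK (0.201). Between IR/CHT and CHT the count of 0 became 1, KDR in AoV, with DESeq2 (adjusted p = 0.0473), with only the 2 groups (adjusted p = 0.0193), with 1 model of all libraries (0.00333) and with plate as a covariate (0.0483). Leaving out each library in turn gave 6 to 6 calls with CHT, 6 to 8 with IR/CHT, 0 to 2 with Lard and 0 to 0 between IR/CHT and CHT. VWF with Lard in Ao was called without CHT replicate L573 (adjusted p = 0.0321), Lard replicate L563 (0.0353), Lard replicate L576 (0.0278) or IR/CHT replicate L579 (0.0384). In AoV with IR/CHT, KDR was called without L182 (0.0482), L198 (0.0336), L186 (0.0492), L152 (0.0378) or L173 (0.0413), and NOS3 without L182 (0.0442), L198 (0.0391), L240 (0.0435), L151 (0.045), L152 (0.0396) or L547 (0.0347). TIE1 with IR/CHT in MV was called without Ctrl replicate L278 (0.0323, edgeR). The causes were not tested.

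Between tissues on Ctrl, 32 to 37 of 70 comparisons were called under the settings tried and 30 to 37 without any 1 of 7 rabbits. Without 1 rabbit, calls were lost and gained (edgeR). Between TV and AoV, CDH5 was lost without any of 6 rabbits (adjusted p up to 0.0911; kept without L08256) and PECAM1 without L08273 (0.103), L08286 (0.0634), L08313 (0.066), L08719 (0.0854) or L08742 (0.0561). Between AoV and Ao, KDR was lost without L08273 (0.159), L08286 (0.186), L08313 (0.126), L08709 (0.0536) or L08719 (0.109), and CDH5 without L08256 (0.0695) or L08742 (0.0803). Between PV and MV, PECAM1 was lost without L08273 (0.146), L08313 (0.0815), L08719 (0.141) or L08742 (0.0549), CDH5 without L08273 (0.0988), L08313 (0.0677) or L08719 (0.118), and TEK without L08719 (0.0595). Other calls were gained, TEK (0.0283) and CDH5 (0.0389) between TV and MV and KDR (0.0445) between MV and AoV without L08256, and CDH5 between MV and Ao without L08273 (0.0161), L08313 (0.00844) or L08719 (0.0376). The 13 interactions became 15 with DESeq2's size factors and without L271 and L272, the latter a setting chosen after seeing the data. They became 10 without a filter and 8 with only the 2 tissues compared. The last setting lost TIE1 with CHT and Lard and KDR between AoV and Ao, and NOS3 and TIE1 between MV and AoV. It takes the spread from the 2 tissues alone, and the part of this in the lost calls was not tested. With the rabbit as a replicate block, 34 comparisons on Ctrl and 15 interactions were called, and the blocked values that crossed the threshold stand beside the results above. No called difference turned direction. Plate 1 alone holds no Ao library, and none of the 7 genes was called there in the valves. Leaving out single libraries was not run for the interactions. TIE1 in Ctrl Ao rests on few read pairs, 9 to 38 per library. With CHT in Ao its SE of 0.42 lay between those of PECAM1 (0.34) and VWF (0.52), and the part of the low counts was not tested.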
